A study of Gallus gallus with 24 samples.

Results

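The genes described here were higher in those chicken interdigit libraries that nearly lacked the transcript of 1 marker gene, and they were moderately higher, by about 1.6-fold. Their members were chosen from the measured values themselves. Libraries with ENSGALG00010011988 at 50 CPM or more (counts per 1000000 reads) were called high and the others low. A gene was a member when its mean over all 24 libraries lay between 10 and 1000 CPM, its mean log2(CPM + 1) was at least 0.4 higher in the low libraries, and the Welch t of that difference was at least 4. The rule found 89 members among 7080 genes of 10 to 1000 CPM and 30108 genes in the table. Everything that compares the low and the high libraries in these 89 genes was used by the rule, so it is given as a description with no test.

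The tissue was interdigital region 3 of the hindlimb of chicken embryos staged HH30 to HH31, incubated for 7 days plus 4, 6, 8 or 11 hours, with 6 libraries at each time. The labels give no treatment other than incubation time and no sex, strain or genotype. Nothing in them ties a library to 1 embryo, and the p-values given here cover only the spread between libraries, which may be technical. In whole tissue, fewer cells of a type and less RNA per cell cannot be told apart.

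The interdigit is the mesenchyme between forming digits, and much of this tissue dies while the digits come apart. In birds, males carry a pair of Z chromosomes and females a single Z and a W. Dosage compensation of the avian Z is known to be incomplete, so that many Z-linked genes are more abundant in males, by varying amounts, while W-linked genes are absent from them. The members had been proposed as candidates for such Z-linked dosage. The table names genes by Ensembl identifier only, and 0 of these identifiers matched the 25635 genes of the reference at hand (the RefSeq annotation of GRCg7b). No name, role, chromosome or sequence is therefore given for any gene, the tissue could not be checked against its markers, and Z linkage was not tested.

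The division of the libraries was wide. ENSGALG00010011988 ranged from 3.62 to 9.42 CPM (median 5.36) in the 11 low libraries and from 533.5 to 1024 CPM (median 731.3) in the 13 high ones, with no library between. Over the 4 times in order the low libraries numbered 3, 3, 3 and 2, and the high ones 3, 3, 3 and 4. Depth was 4862240 ± 1929280 reads in the low and 3769820 ± 2052310 in the high libraries (SD, n = 11 and 13), and the 3 libraries under 1000000 reads were all high. The part of depth in the values below was not tested. Without these 3 libraries the median ratio of the members was 1.69, against 1.64 with them. After scaling each library by a TMM factor, it was 1.64 without them and 1.66 with them. The library numbers in the labels can be parted into a lower and an upper range, which hold 7 low with 7 high and 4 low with 6 high libraries. The ranges follow time: all libraries at 4 h and 11 h are in the lower one, and all high libraries at 6 h and 8 h in the upper one, so range and time cannot be told apart in the high libraries except between 4 h and 11 h or between 6 h and 8 h.

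Together the members took a larger share of the transcripts in every low library than in any high one. Their summed share was 1.35%, 1.38% and 1.40% of all CPM in the low libraries at 4 h, 1.34%, 1.35% and 1.38% at 6 h, 1.33%, 1.35% and 1.40% at 8 h, and 1.37% and 1.40% at 11 h. In the high libraries it was 0.854%, 0.890% and 0.901% at 4 h, 0.771%, 0.805% and 0.906% at 6 h, 0.792%, 0.839% and 0.901% at 8 h, and 0.790% to 0.830% over the 4 libraries at 11 h. The classes did not overlap at any time, which the choice of members fixes. Within a class the share was narrow, with 1.37% ± 0.0245 in the low and 0.840% ± 0.0465 in the high libraries (SD, n = 11 and 13). The rule's t favours genes of small spread within a class, so this narrowness follows in part from the rule. In each low library, between 86 and 89 of the 89 members lay above their mean in the high libraries.

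**Figure D1:**
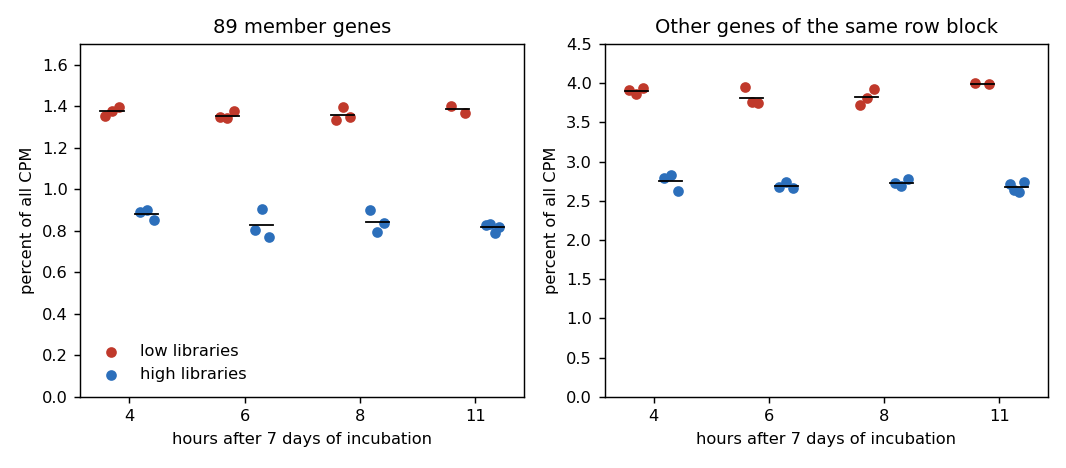
Percent of all CPM taken by the 89 members (left) and by the other genes of the run of table rows in which they lie (right), by hours after 7 days; each point is a library, red for low and blue for high libraries, and black bars are means. Low libraries lie between 1.33% and 1.40% on the left and between 3.73% and 4.00% on the right, above all high libraries; 5 genes above 1000 CPM supply 80.6% of the difference on the right.

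The fold of the members was centred between 1.5 and 2 and nearer to 1.5. The ratio of mean CPM in low to high libraries had a median of 1.64, quartiles of 1.55 and 1.752, and a range of 1.32 to 2.41. Of the 89 members, 66 had a ratio within 0.25 of 1.5, 22 one within 0.25 of 2, and 1 a higher ratio. Over all 7080 genes of 10 to 1000 CPM the median ratio was 0.982, and 7.68% had a ratio within 0.25 of 1.5 and 0.551% one within 0.25 of 2. The members are 1.26% of these genes, which is the rule's own yield. The rule's minimum difference of 0.4 log2 units keeps genes of lower ratio out. The centre of the members' ratios thus follows in part from the rule, and nothing is read from the contrast with all genes. In the run of table rows described below, all 367 genes of 10 to 1000 CPM, members included, had a median ratio of 1.37. The difference in log2(CPM + 1) varied among members with an SD of 0.16, while the standard error of a single member's difference had a median of 0.13. The spread in fold among members was thus close in size to the error of a single fold, within the limits that the rule imposed.

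The fold was only weakly related to the level. The 29 members of 10 to 50 CPM had a median ratio of 1.72, the 42 of 50 to 150 CPM one of 1.60 and the 18 of 150 CPM or more one of 1.63. Across the 89 members Spearman's rho between ratio and mean CPM was -0.31. This is a description over genes that share the same libraries, and the rule admits weak genes only with a larger difference. The lowest member averaged 19.1 CPM and the highest 849.4 CPM, so no member lay at either limit of level. The reads behind a member's value in a library ranged from 3 to 9327 with a median of 259.5, and 63 of 2136 values rested on fewer than 20 reads.

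The thresholds cut through a continuous series of genes. The smallest difference inside was 0.40 on the log2 scale (143.6 ± 18.8 CPM in low and 109.1 ± 20.9 in high libraries, SD, n = 11 and 13). Outside, 1 gene had a t of 4 or more with a smaller difference, of 0.37. The smallest t inside was 4.02, for a gene at 40.8 ± 11.0 CPM in low and 23.6 ± 9.89 in high libraries. The largest t outside among genes past the difference was 3.98. In all, 464 genes of 10 to 1000 CPM were past the difference with a t under 4. Of these, 68 had a t of 3 to 4, so that the length of the list is set by the t threshold.

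**Figure D2:**
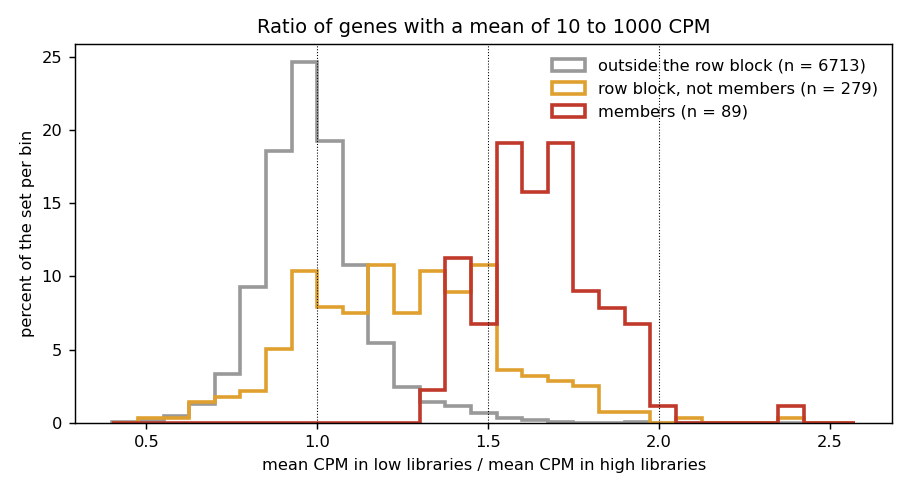
Distribution of the ratio of mean CPM in low to high libraries for members (red), for genes of the same run of rows that are not members (orange) and for all other genes of 10 to 1000 CPM (grey), in percent of each set; dotted lines mark ratios of 1, 1.5 and 2. The 39 genes with ratios beyond 0.4 to 2.575 are not drawn. Members centre on 1.64 by choice, the orange set has quartiles of 1.04 and 1.45, and the grey set centres on 0.976.

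ENSGALG00010010713 had the largest t among the members and showed the division most cleanly. Its low libraries were at 497.6, 517.1 and 566.0 CPM at 4 h, at 532.5, 574.1 and 595.7 at 6 h, at 517.3, 550.6 and 555.0 at 8 h, and at 545.4 and 559.7 at 11 h. Its high libraries were at 273.6, 284.7 and 306.4 CPM at 4 h, at 284.8, 288.8 and 303.6 at 6 h, at 304.1, 346.5 and 348.8 at 8 h, and at 276.5, 315.8, 328.4 and 328.9 at 11 h. The lowest low library stood well above the highest high one at each time. The means were 546.5 ± 28.5 and 307.0 ± 25.4 CPM (SD, n = 11 and 13), a ratio of 1.78, and the ratio was 1.83, 1.94, 1.62 and 1.77 at the 4 times in order.

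ENSGALG00010005495 was the most abundant other member. It ranged from 878.4 to 1265 CPM (median 1061) in the low libraries and from 467.5 to 725.8 CPM (median 630.0) in the high ones, so these classes did not overlap either. The means were 1091 ± 113.1 and 644.9 ± 68.2 CPM (SD, n = 11 and 13), a ratio of 1.69. Over the 4 times in order its ratio was 1.57, 1.57, 1.80 and 1.93. The class by time interaction of this gene did not pass (adjusted p = 0.99, limma).

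Complete separation was not the rule among members. In 18 of the 89 every low library lay above every high one, and in the other 71 the classes overlapped in at least 1 library. Over all genes of 10 to 1000 CPM such separation occurred in 0.254%, that is in the same 18 genes and no other. Among members of 150 CPM or more it held for 11 of 18, and among those under 50 CPM for 1 of 29. In the run of table rows described below, it held for 45.8% of all 24 genes of 150 to 1000 CPM. For all 245 genes of 10 to 50 CPM there, the share was 0.408%. Shares over all genes of each level were not computed. The rule's t bears on such separation, so no trend with level is read from these counts.

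The difference between low and high libraries had the same sign at each of the 4 times in all members, and its median stayed close to its overall value. Each time is represented by different libraries. The median ratio was 1.60 at 4 h (quartiles 1.42 and 1.80), 1.72 at 6 h (1.49 and 1.94), 1.58 at 8 h (1.37 and 1.80) and 1.67 at 11 h (1.496 and 1.89). All 89 members were higher in the low libraries at 4 h, 6 h, 8 h and 11 h, against 8.42% of all genes of 10 to 1000 CPM that were so at all 4 times. The rule used the same values, so nothing is read from this contrast. Every low library lay above every high one in 71, 62, 52 and 76 members over the 4 times in order, where the shares over all genes were 6.12%, 7.10%, 6.30% and 6.31%.

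Single members varied more between times than the median did. The difference at a single time ran from 0.0034 to 1.96 log2 units over all members and times. The spread between a member's highest and lowest time had a median of 0.49 log2 units, against 0.70 for all genes of 10 to 1000 CPM; the t in the rule favours genes of small spread, so nothing is read from this. The most even member, at a mean of 76.9 CPM, differed by 0.73, 0.60, 0.71 and 0.69 log2 units at the 4 times. The least even, the member with the lowest mean CPM, differed by 0.36, 1.94, 1.76 and 0.43. Pearson's r between the members' differences at any 2 times ranged from -0.08 to 0.15 (n = 89 genes, sets of libraries that do not overlap). The rule left little range among the members, close to the error of a single difference, so this r does not show whether members kept an order.

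**Figure D3:**
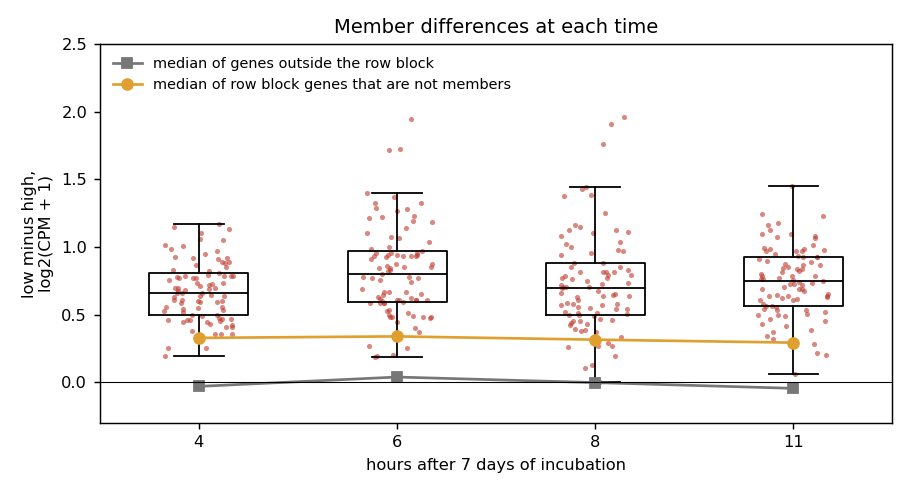
Low minus high difference in log2(CPM + 1) of each of the 89 members (red points) at each time, with boxes for median and quartiles and whiskers to the farthest point within 1.5 interquartile ranges; lines give the medians of other genes of the same run of rows (orange) and of the genes outside it (grey). Member medians are 0.66, 0.80, 0.70 and 0.75, and the grey medians stay within 0.05 of 0.

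Whether the difference changed with time was tested with a term that the rule did not use directly. The rule's t divides by the spread within a class over all times, however, so it disfavoured genes whose level or difference moves with time. The tests of time on members are therefore not independent of it. In a limma fit of class, time and their interaction over all 13783 genes that passed the filter on low values, which included all 89 members, 0 members passed at an adjusted p under 0.05 and 0% of all genes did. At an unadjusted p under 0.05 there were 5 of 89 members (5.62%), close to the 4.58% over all genes; limma-voom on the recovered reads called 0 and had 4, beside 5.36% of all genes. The smallest p was that of a member with differences of 0.77, 0.59, 1.96 and 0.81 at the 4 times (adjusted p = 0.99, limma). Leaving out replicate 4 at 8 h, a high library, gave 14 members (15.7%) beside 9.44% of all genes, and leaving out replicate 1 at 4 h, replicate 1 or 2 at 6 h or replicate 6 at 8 h gave 3 each, beside 3.83% to 4.84% of all genes. There was 1 member without the 3 libraries under 1000000 reads (4.51% of all genes) and there were 2 with the replicate number as a block (4.91%). These cells hold 2 to 4 libraries, and the design resolves only large changes. For the change in the difference from 4 h to 11 h the median standard error was 0.40 log2 units, and the 95% interval lay within 2-fold in 37 of 89 members (41.6%, against 20.3% of all genes of 10 to 1000 CPM). A missed threshold thus does not show that the difference was constant.

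The members' own levels over time were likewise tested, with class as a term. For any difference among the 4 times 0 of 89 members passed at an adjusted p under 0.05, where 0.00726% of all genes did (1 gene, limma). The smallest adjusted p among members was 0.46, and 8 members (8.99%) had an unadjusted p under 0.05, beside 8.18% of all genes; limma-voom called 0 members and had 7, beside 8.30% of all genes. A term for the range of library numbers made these 8 into 3 (3.37%, beside 4.27% of all genes). Leaving out replicate 1, 5 or 6 at 4 h or replicate 5 at 6 h made them 4 or 5, beside 6.98% to 7.49% of all genes. They became 10 (11.2%) without replicate 2 at 4 h or replicate 4 at 8 h, beside 9.23% and 9.91%. A fit with no class term, which leaves the class difference in the spread, had 0 beside 7.44%. For 11 h against 4 h 0 members and 0% of all genes passed, and 5 members had an unadjusted p under 0.05 (5.62%, against 4.08% of all genes; limma-voom 0 and 5, against 7.49% of all genes). For a slope per hour 0 members passed and 0.00726% of all genes, with 5 members at an unadjusted p under 0.05 against 4.88% of all genes (limma-voom 0 and 7, against 7.75% of all genes). In each of the last 2 tests there were 3 members (3.37%) without replicate 1 at 4 h, beside 3.83% and 5.02% of all genes. Leaving out replicate 4 at 11 h also gave 3 in each, beside 3.05% and 3.74%. The count ran from 3 to 6 over all libraries left out in turn.

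The change in level from 4 h to 11 h was bounded more tightly than the change in the class difference. The estimated change from 4 h to 11 h ran from -0.50 to 0.50 log2 units over the members, with a median of 0.01 and a median standard error of 0.20. It was above 0 in 49 of 89. The 95% interval of each gene lay within 2-fold in both directions for 87 members (97.8%) and within 1.5-fold for 56, against 79.4% and 34.1% of all genes of 10 to 1000 CPM. The members are more abundant than those genes, with a median of 63.9 against 33.3 CPM, and the rule's t favours genes of small spread; the part of either in this was not tested.

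The 2 members with the smallest p for 11 h against 4 h in either direction show the size of change at issue. ENSGALG00010006277 was at 175.1 ± 22.9 CPM in the low libraries at 4 h and at 203.4 and 213.3 at 11 h. In its high libraries it was at 71.9, 91.6 and 109.1 CPM at 4 h and at 95.4, 121.7, 142.8 and 153.3 at 11 h. The 2 times overlap in the high libraries and not in the low ones. The difference was 0.44 ± 0.15 log2 units (SE, adjusted p = 1.00, limma). Its highest value, 301.3 CPM, belonged to a low library at 8 h.

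ENSGALG00010007224 was at 150.1, 156.98 and 161.6 CPM in the low libraries at 4 h and at 126.3 and 140.2 at 11 h. In the high libraries it was at 109.2, 123.0 and 133.5 CPM at 4 h and at 56.7, 70.4, 75.9 and 77.3 at 11 h. Both classes were lower at 11 h with no overlap. The difference was -0.48 ± 0.21 log2 units (SE, adjusted p = 1.00, limma). Its ratio between classes was 1.28, 1.34, 2.05 and 1.90 from the first to the last time, and the interaction did not pass (adjusted p = 0.99, limma). The lowest value, 31.8 CPM, rests on 22 reads in a high library at 8 h.

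**Figure D4:**
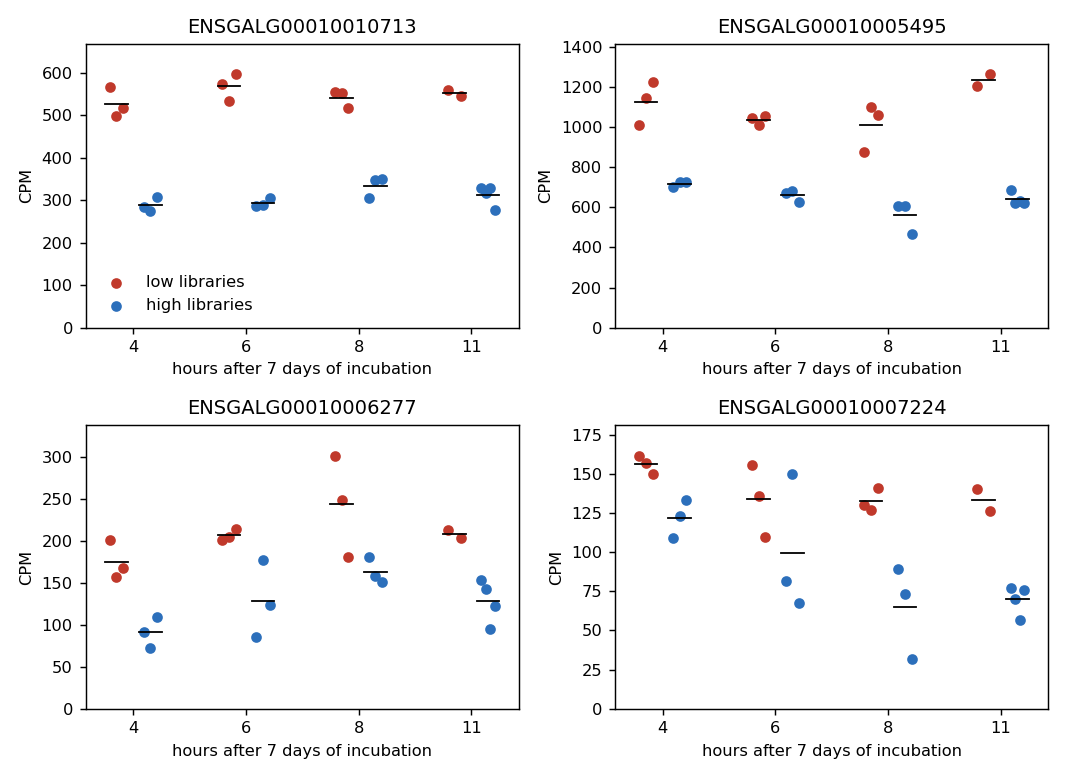
CPM of 4 members in each of the 24 libraries by hours after 7 days, red for low and blue for high libraries, with black bars for class means at each time. The upper pair never overlap between classes, and in the lower pair the classes overlap at 8 h (left) and at 6 h (right).

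The members lay together in the deposited table, a feature the rule did not use. The rows are not in the order of the identifiers, although neighbouring rows often have near identifier numbers (median step 88). Of the 89 members, 88 (98.9%) lay between rows 28473 and 30095, a run of 1623 rows at the end of the table that holds 367 of the 7080 genes of 10 to 1000 CPM (5.18%). The remaining member was in row 1382. The bounds of the run were set from the members themselves, after the data were seen, so no test is attached. Of the genes of 10 to 1000 CPM in the run, 23.98% were members. In 14 cases 2 members were in adjacent rows, a count with no expected number beside it, so nothing is read from it. By identifier number the members ran from 1156 to 15752 (the last 6 digits), a span that holds 48.8% of the genes of 10 to 1000 CPM, and they were interspersed there with other genes. What the row order follows is not given in the sources used here, and no chromosome is drawn from it.

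**Figure D5:**
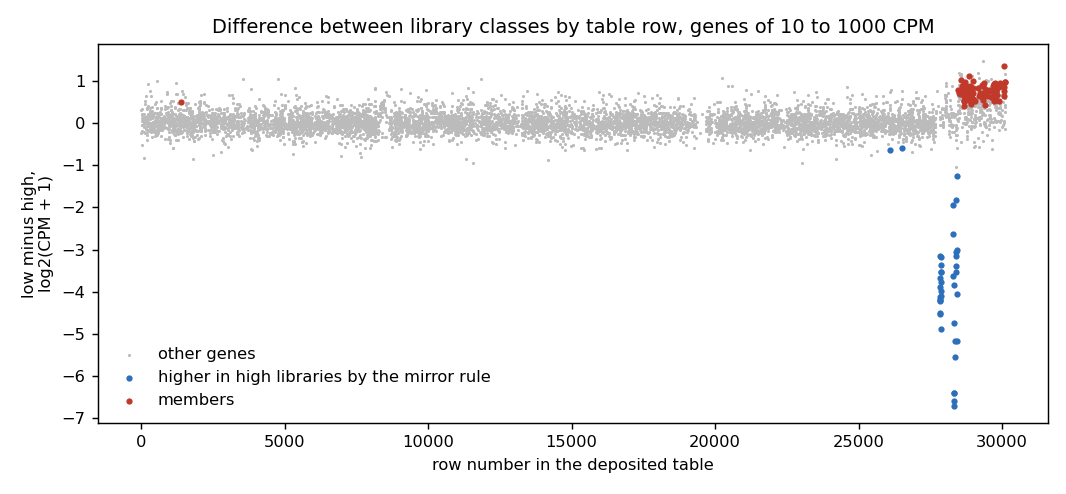
Low minus high difference in log2(CPM + 1) of the 7080 genes of 10 to 1000 CPM against their row number in the deposited table; members are red, the 39 genes past the same thresholds in the other direction are blue and the rest grey. From row 28473 the grey points are shifted upward (219 of them have a ratio above 1). The 1000 rows before hold 37 of the 39 blue points and 177 of the 7080 genes.

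The genes of this run that were not members were more often higher in the low libraries than genes elsewhere in the table, which is a count and not a call on any of them. Of the 367 genes of 10 to 1000 CPM in the run, those that were not members had a median difference of 0.37 log2 units and quartiles of the ratio of 1.04 and 1.45, and 219 of them (78.5%) had a ratio above 1, against 41.8% of the 6713 genes outside the run, whose median ratio was 0.976. Among them 126 had a ratio within 0.25 of 1.5, 12 one within 0.25 of 2, 2 a higher and 139 a lower ratio. Members and others together, the 367 genes of the run had a median ratio of 1.37 with quartiles of 1.10 and 1.58. The members, chosen for a large difference, took up the upper part of this distribution. By level, the genes that were not members had a median ratio of 1.28 at 10 to 50 CPM (217 genes), 1.20 at 50 to 150 CPM (56 genes) and 1.11 at 150 CPM or more (6 genes, from 1.00 to 1.16). The rule takes a gene with a larger ratio out of this set more readily at a higher level, so no trend with level is read from these medians.

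Outside the limits of level that the rule set, the values differed between strong and weak genes. The run contains 5 genes above 1000 CPM, with ratios from 1.16 to 1.87 and a median of 1.84. Of these, 4 passed the difference and the t, the only ones to do so among all 129 genes above 1000 CPM. The 124 other genes above 1000 CPM had a median ratio of 0.994. Among genes of 2 to 10 CPM, the 284 of the run had a median ratio of 1.20 (65.5% above 1) and the 5117 outside it one of 1.01 (51.0%). Of all 5401 genes at this level 13 passed the difference and the t, 8 of them in the run. Over the 4 times in order the median of the 284 was 1.41, 1.28, 1.10 and 1.00. That of the 5117 outside the run was 1.14, 1.07, 0.953 and 0.910. Both median ratios thus fell over the times, and that of the run was the higher at each. The median differences in log2(CPM + 1) were 0.40, 0.42, 0.40 and 0.08 in the run and 0.16, 0.21, 0.16 and -0.04 outside it. These genes rest on few reads, with a median residual SD of 0.90 log2 units in the run. The 3 libraries under 1000000 reads were all high ones at 6 h and 8 h, with none at 11 h, where the medians were lowest. These values used CPM without TMM factors. Mean factors at the 4 times in order were 1.01, 1.04, 0.976 and 0.932 in the low libraries. In the high libraries they were 0.986, 1.04, 1.06 and 0.970. The part of depth or scaling in these medians was not tested, nor was their change with time.

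Summed over all genes of the run that are not members, the share of CPM was 3.73% to 4.00% in the low and 2.61% to 2.83% in the high libraries, with no overlap. This difference was carried mostly by few genes, since the 5 above 1000 CPM supplied 80.6% of it, with 2.39% ± 0.153 in low and 1.46% ± 0.118 in high libraries (SD, n = 11 and 13). Those of 10 to 1000 CPM took 1.29% ± 0.0486 and 1.09% ± 0.109, and there the classes overlapped (1.21% to 1.38% and 0.966% to 1.30%). For the whole sum the means were 3.87% ± 0.0987 and 2.71% ± 0.0672 (SD, n = 11 and 13). This share stood apart at each time, with means of 3.91% and 2.75% at 4 h, 3.82% and 2.69% at 6 h, 3.82% and 2.73% at 8 h, and 3.99% and 2.68% at 11 h in low and high libraries.

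The median ratio was above 1 in every stretch of the run, although each stretch also held genes that were not above 1 (60 of the 367 in all). In 9 stretches of 200 rows, of which the last is short, the median ratio of genes of 10 to 1000 CPM ranged from 1.26 to 1.62 and the number of members from 4 to 17. The highest medians were 1.502 in rows 29675 to 29867 (44 genes, 17 of them members) and 1.62 in the last 10 genes (4 members). Among the bins of 1000 rows before row 28001 the median ratio ranged from 0.958 to 1.01, and they held 1 member in all. The medians of the stretches include the members, which the rule chose for a higher ratio. The bounds of the run were also set from the members, so the contrast with the earlier bins is in part built in. Medians of each stretch without the members were not computed. Over the whole run, the genes that were not members had quartiles of the ratio of 1.04 and 1.45.

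The reverse rule, 0.4 or more higher in the high libraries with a t of -4 or less, was met by 39 genes, or 0.551% of those of 10 to 1000 CPM, among them the dividing gene itself. The other 38 had a median ratio of 0.0466. Of the 39, 0 lay in the run of rows that holds the members, where 5.18% of the genes of 10 to 1000 CPM lie. The bounds of that run were set from the members.

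Beyond the class difference, the correlation among members was low and about that over all genes. After class by time means were removed, the median pairwise Pearson correlation among the 89 members was 0.017 over the 24 libraries, against 0.017 over all 7080 genes and 0.039 over the other genes of the run. Their residual SD had a median of 0.32 log2 units (0.43 over all 7080 genes, though the rule's t favours a small one), and it was 0.41 for members under 50 CPM and 0.20 for those of 150 CPM or more. These are descriptions across genes of the same libraries. The error of single values and the rule's t both hold such an r low, so it does not show whether members vary together.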

How the data were processed

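Messenger RNA of 24 libraries was measured, per the labels' protocols with Lasy-Seq, which pools barcoded libraries. Named in the submitters' processing notes are BWA 0.7.17-r1188, Salmon and fastp 0.21.0, without their roles. Genome build and annotation: not given in the sources used here. Values deposited by the authors are on a natural log scale, ln(CPM + 1): exp(value) - 1 summed to 1000000 in each library. They came out as whole reads within 0.01 read for 99.9995% of 406811 values above 0, which gave depths of 690847 to 8134730 reads.

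CPM were divided by TMM factors (trimming 30% of M and 5% of A) and log2(CPM + 1) was fitted with limma 3.58.1 in R 4.3.3, with an intensity trend. A gene was tested with at least 6 libraries at 2.26 CPM (10 reads at median depth) and 15 reads in all, which left 13783 genes. The library class was a term in every test of time, except in the alternative fit run without it. P-values were adjusted by Benjamini-Hochberg over these genes, with a threshold of 0.05. A pseudocount of 1 understates changes of weak genes. The member rule used CPM without these factors. The fits were also run on simulated counts, with a common dispersion for all genes and without TMM factors. Nothing here is read from that run, whose setting is simpler than these data. Descriptive values were computed in Python 3.11.15.

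The members, the dividing gene and the tests were chosen with earlier results of these data known, and the run of rows and its alternatives after the data were seen. Named are the members with the largest t and, of the rest, the highest mean CPM, and the members with the smallest p for 11 h against 4 h in each direction. Lists of marker genes were not evaluated, since 0 identifiers matched a name. No library was a copy of another in its group (chi-square per degree of freedom of at least 8.08).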

Additional observations from a re-analysis of the deposited data

Results flagged for a closer look

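Of 33 sets of 4 or 6 libraries examined, 1 held a library far from the others. The 6 libraries of a time include both low and high ones, which lie apart in values such as the members' share. The chance rate of about 1 in 20 does not hold for such mixed sets, so nothing is read from the count of 1. In the 4 high libraries at 11 h, ENSGALG00010005495 was at 684.8 CPM in 1 library and between 623.2 and 630.0 CPM in the other 3. The gap to the nearest of these was 0.89 of the whole range of the 4. The value lay below every low library of that gene.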

How the results depend on the processing

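The number of members, 89 by the rule, followed its thresholds and the libraries used. It was 1.76 times as large at a minimum t of 3 and 0.596 times (53 members) at a minimum t of 5, by construction. With the upper library numbers only it was 0.438 times as large, or 39 members, 29 of them among the 89, from 10 libraries. Over the 16 alternatives to the rule the median ratio ran from 1.60 to 1.72. It was taken over the new list where level limits or thresholds changed, and over the same 89 members in the other alternatives. The 1.72 was that with no level limits, a larger list by construction. A division at 25 or 100 CPM left the classes unchanged, and a pseudocount of 0.5 or 5 does not enter the ratio of the same 89 members. These alternatives could not move the median ratio, which stayed at 1.64. Leaving out each of the 24 libraries in turn gave 78 to 91 members (0.876 to 1.02 times as many), 77 to 85 of them among the 89. The median ratio of the 89 themselves was then 1.63 to 1.68. They were chosen on all 24 libraries, so this narrow range follows in part from the choice. Between 79.5% and 100% of the members found under the 16 alternatives lay in the same run of rows, and 97.6% to 100% when a library was left out. The median ratio of the other genes of the run was 1.22 to 1.29 over 10 alternatives. The row values and the combination of TMM factors with leaving out the 3 shallow libraries were added after seeing the data.

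In the 4 tests of time and interaction 0 members passed under any alternative run and under each library left out. Over all genes the calls for any time, 11 h against 4 h, slope and interaction were 6, 14, 24 and 0 with array weights and 3, 7, 6 and 0 without the 3 libraries under 1000000 reads, against 1, 0, 1 and 0. They reached 7 for 11 h against 4 h with only the 4 h and 11 h libraries, and 12 for the interaction without replicate 4 at 8 h. The cause was not tested. The change from 4 h to 11 h ranged from 0.31 to 0.46 for ENSGALG00010006277 and from -0.61 to -0.44 for ENSGALG00010007224 over 12 alternatives (lowest adjusted p 0.23 and 0.24, limma), and from 0.31 to 0.52 and -0.53 to -0.38 with a library left out. The replicate block gave 0 members in each of the 4 tests and 0, 1, 2 and 0 calls over all genes. Libraries were not paired by their replicate numbers, since the deviations of same-numbered libraries correlated above 0.1 in 9 of 36 pairs and 3 of 24 libraries correlated best with their own number. Depth limits the weakest members, and cells of 2 to 4 libraries limit the interaction.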
